A study of Mus musculus with 18 samples.

Results

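The 10 genes described here were Trp53, which encodes the transcription factor p53, and 9 of its best known target genes: Cdkn1a, Mdm2, Trp53inp1, Ccng1, Bbc3, Bax, Sesn1, Fas and Zmat3. They were chosen by symbol from the deposited gene table, which held 18397 genes, and all 10 passed the filter on low counts, as did 12245 genes in all. The table came from 18 RNA-seq libraries of mouse cells labelled RAW264.7, the name of a macrophage-like line, in 6 groups of 3: Soft, Soft+mito, Soft-TW, Stiff, Stiff+mito and Stiff-TW. The series' title links the transfer of mitochondria to stiffness and to tumour progression. Its labels give the group names only. They state no stiffness value, dose or time and do not spell out mito or TW, so both names are used as given. A response "with TW" or "with mito" is that group beside the plain group of the same matrix. Where Stiff is set against Soft, "with TW" or "with mito" means that both groups had it. The labels call the 3 libraries of a group biosamples without saying whether they came from separate cultures, so each p-value rests on the spread of these libraries alone, and that spread may be technical.

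p53 is held at a low level in unstressed cells by Mdm2, a ubiquitin ligase that is itself made from a p53 target gene, and much of the control of p53 acts on the protein rather than on its mRNA. Once active, p53 binds paired decamers in the DNA of its targets and raises genes that arrest the cell cycle, such as Cdkn1a, and genes that promote death, such as Bbc3, Bax and Fas. The p21 protein from Cdkn1a inhibits cyclin-dependent kinases, which leaves the DREAM complex on the promoters of mitotic genes and keeps those genes low.

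The promoter sequences below show where the letters of the p53 consensus stand near the starts of 5 of the 10 genes. RefSeq promoter windows of GRCm38.p6, from 250 bases before to 50 bases after a start, were searched on both strands for 2 decamers placed end to end. Up to 3 letters could differ, and the C and G of both cores had to be kept. Of 32851 windows, 1.38% held such a match, and 0.067% held one with at most 1 letter off. There were 12 windows for 8 of the 10 genes, and 5 windows of 5 genes held a match. Capitals mark the 20 matched bases, with 10 bases on each side, read 5′ to 3′ along the gene's strand, and distances run from the first matched base to the start.
Cdkn1a, chr17:29090918-29090957, plus strand, 51 bases before the upstream start with 1 letter off: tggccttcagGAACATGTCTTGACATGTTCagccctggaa
Ccng1, chr11:40755452-40755491, minus strand, 195 bases before the start with 1 letter off: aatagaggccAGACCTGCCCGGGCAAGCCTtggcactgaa
Trp53, chr11:69580274-69580313, plus strand, 75 bases before the start with 3 letters off: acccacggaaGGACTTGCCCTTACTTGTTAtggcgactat
Bbc3, chr7:16309476-16309515, plus strand, 97 bases before a start with 3 letters off: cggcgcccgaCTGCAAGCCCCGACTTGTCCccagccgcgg
Sesn1, chr10:41887256-41887295, plus strand, 173 bases before the downstream start with 3 letters off: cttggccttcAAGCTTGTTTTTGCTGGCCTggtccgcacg
No such match stood in the windows of Mdm2, Bax and Fas, in the window of the downstream Cdkn1a start, or in the other windows of Bbc3 and Sesn1. A match describes these letters only; binding was not measured here, and no match says only that these letters are not in the window searched.

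Library totals lay between 16054637 and 16887244 estimated counts, and the trimmed-mean (TMM) scaling factors between 0.968 and 1.03. The libraries of a group were close to each other: the common biological coefficient of variation over all genes was 0.0175, so log2 differences under 0.1 could pass the test. Of 11 macrophage markers, 7 were low in every library: Adgre1 reached 0.14 TPM, Ptprc 0.27, Fcgr1 0.30, Itgam 0.41, Spi1 0.74, Csf1r 1.10 and Tyrobp 3.61 TPM. The other 4 were higher, with Cd14 at 20.1 to 34.3 TPM, Mertk at 12.3 to 25.0, Lyz2 at 5.07 to 30.8 and Cd68 at 3.95 to 15.0 TPM. The 7 low markers do not match the label of a macrophage-like line, and the identity of the cells was not tested. Of the epithelial markers, Krt8 lay between 431 and 730 TPM and Krt18 between 233 and 319 TPM, while Epcam reached 0.10 TPM, Krt19 0.16 and Cdh1 0.34 TPM. Of the fibroblast and mesenchymal markers, Vim lay between 1413 and 4229 TPM, Pdgfra between 25.8 and 68.2 and Col1a2 between 19.8 and 60.3 TPM. Col3a1 lay between 5.39 and 11.2 TPM, Pdgfrb between 2.02 and 6.92 and Col1a1 between 1.85 and 3.95 TPM. Thy1 reached 0.07 TPM, Fap 0.11, Lum 0.11 and Dcn 1.37 TPM. Cdkn2a, which encodes the Mdm2 inhibitor p19Arf, had 0 or 1 counts in every library. Of the p53 relatives, Trp63 reached 0.41 TPM and Trp73 0.04 TPM. In these bulk libraries, fewer cells of a type and less RNA per cell cannot be told apart.

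Most of the 10 genes differed between the plain Stiff and Soft groups and between each TW group and its plain group, and fewer differed with mito. A gene was called changed at a Benjamini-Hochberg adjusted p under 0.05 in edgeR's quasi-likelihood test over all 12245 genes. In Stiff against Soft, 8 of the 10 rose and 1 fell, where 29.1% of all tested genes were called higher and 24.7% lower. In Soft+mito against Soft, 4 rose and 1 fell, against 14.8% higher and 11.9% lower over all genes. In Stiff+mito against Stiff, none rose and 3 fell, against 15.6% and 17.8%.

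In Soft-TW against Soft, 5 rose and 3 fell, against 28.9% called higher and 28.0% called lower over all genes. In Stiff-TW against Stiff, 4 rose and 6 fell, against 35.5% and 34.1%. The 2 matrices were also compared within the mito and the TW groups. In Stiff+mito against Soft+mito, 6 rose and 2 fell, against 32.7% and 30.8%, and in Stiff-TW against Soft-TW, 4 rose and 4 fell, against 27.6% and 26.7%. Comparisons that use the same Soft or Stiff libraries share them, so their counts are not independent. A majority of all tested genes was called in 5 of these 7 comparisons, so a call by itself is common here.

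Whether a response depended on the matrix was tested as an interaction, the response on Stiff minus that on Soft. For TW, 0 of the 10 had a higher and 6 a lower interaction, where 16.4% of all genes were called higher and 19.7% lower. For mito, 1 was higher and 4 were lower, where 10.4% of all genes were higher and 13.1% lower. With library totals in place of TMM factors, the share of all calls that were higher moved from 54.1% to 44.1% in Stiff against Soft, from 55.5% to 38.3% in Soft+mito against Soft, from 50.8% to 38.6% in Soft-TW against Soft and from 44.3% to 58.1% in the mito interaction.

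**Figure D1:**
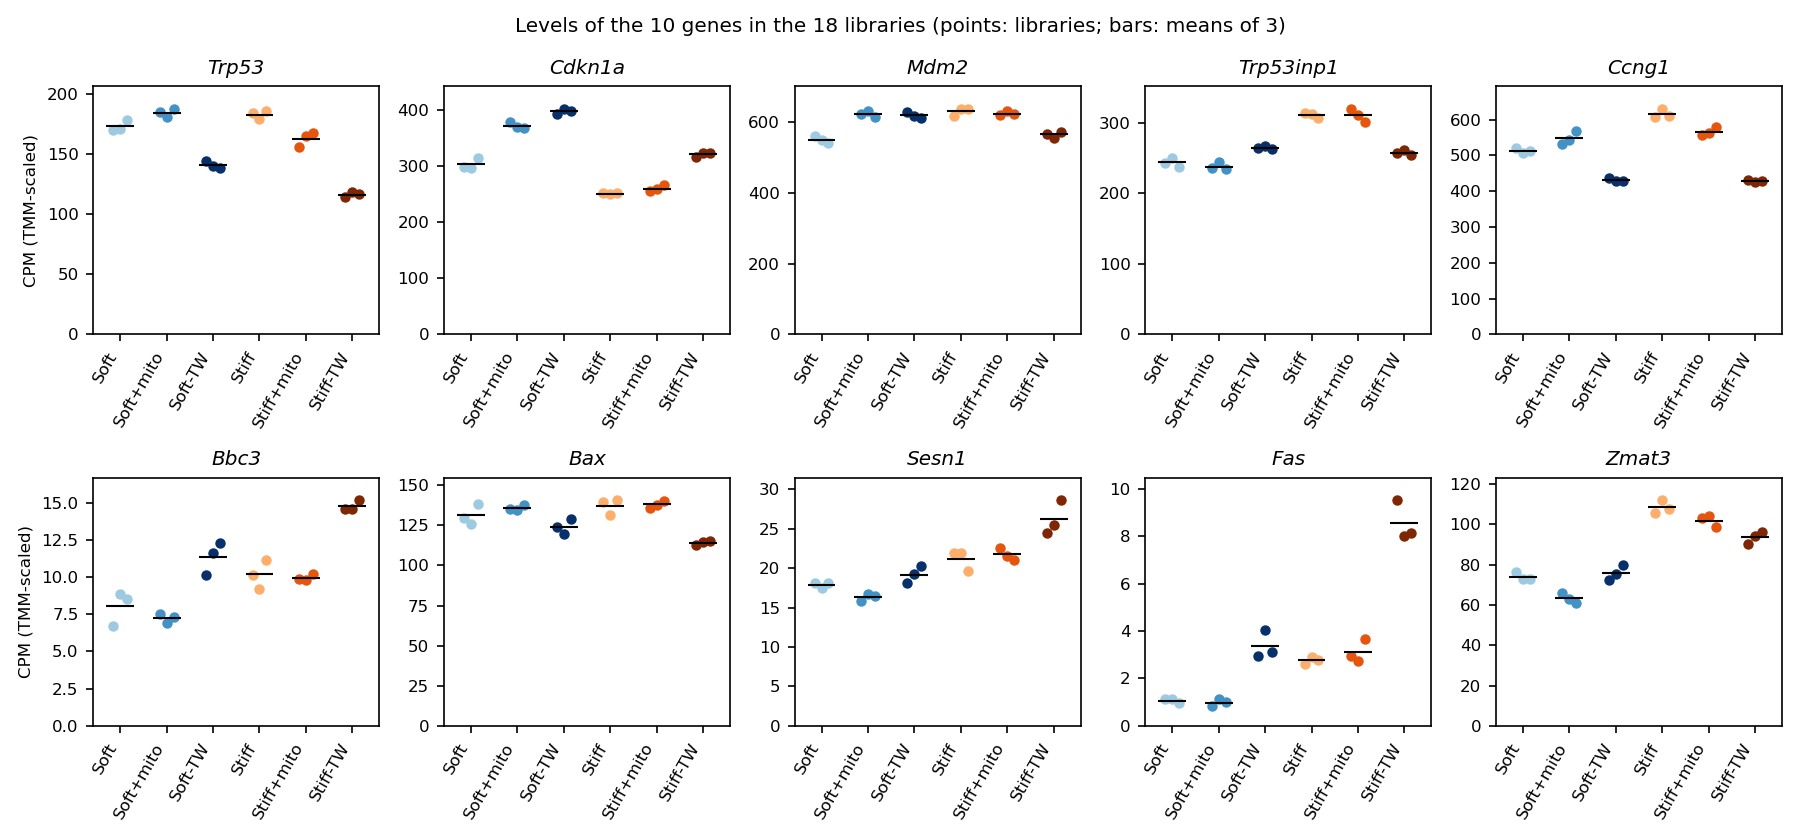
Level of each of the 10 genes in CPM (counts scaled by TMM) on linear axes that start at 0. Points are the 18 libraries and bars the means of 3, by group; Cdkn1a is highest in Soft-TW and lowest in Stiff, Trp53 is lowest in Stiff-TW, and Fas is below 10 CPM in every library.

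Trp53 (gene ID 22059, chr11:69580348-69591873) was lowest in the TW groups, and most so on Stiff. Its level was 170.0, 171 and 178 CPM (TMM-scaled counts per 1000000) in Soft and 184, 179 and 186 CPM in Stiff. It was 184, 181 and 188 CPM in Soft+mito and 155, 165 and 167 CPM in Stiff+mito. It was 144, 140.1 and 139 CPM in Soft-TW and 114, 118 and 116 CPM in Stiff-TW. Every TW library was below every library of the other 4 groups, and the Stiff-TW libraries were below the Soft-TW ones.

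With TW, Trp53 fell 1.23-fold on Soft (log2 fold change -0.30 ± 0.028 SE, adjusted p = 9.18e-17, edgeR) and 1.57-fold on Stiff (-0.65 ± 0.029, adjusted p = 7.23e-40). The response on Stiff was lower than that on Soft, with a difference of -0.36 ± 0.041 on the log2 scale (adjusted p = 1.40e-12). Mito went with a fall on Stiff (-0.17 ± 0.028) and a small rise on Soft (0.089 ± 0.027), and these differed by -0.26 ± 0.039 (adjusted p = 7.53e-08). In the authors' TPM, the means were 192.2 in Soft and 191.6 in Soft+mito. The rise on Soft lost its call with library totals (adjusted p = 0.0875) and without Soft+mito replicate 3 (0.0547). The difference of the plain groups, 0.077 ± 0.027 (adjusted p = 0.013), was no firmer: the adjusted p was 0.120 in DESeq2, 0.260 with library totals and 0.0508 with only these groups in the fit, and it missed the threshold without Soft replicate 1 (0.0591), Soft replicate 2 (0.0518) or Stiff replicate 3 (0.0707). Between matrices, Trp53 was lower in Stiff+mito than in Soft+mito (-0.18 ± 0.027) and in Stiff-TW than in Soft-TW (-0.28 ± 0.030).

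Mdm2 (17246, chr10:117688875-117710758), the ligase that marks p53 for degradation, was lowest in Soft and Stiff-TW and varied least of the 10, with group means that spanned 0.20 on the log2 scale. It was at 562, 550.5 and 541 CPM in Soft and 618, 639 and 638 CPM in Stiff. It was at 624, 632 and 616 CPM in Soft+mito and 620.3, 631 and 624 CPM in Stiff+mito. It was at 629, 617 and 612 CPM in Soft-TW and 568, 557 and 573 CPM in Stiff-TW. In CPM, the Soft and Stiff-TW libraries overlapped each other and lay below all libraries of the remaining 4 groups, which overlapped among themselves. In the authors' TPM, Stiff-TW (285.7 to 290.8) lay below Soft (306.9 to 326.7), and Soft overlapped Soft+mito and Soft-TW.

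Mdm2 moved in opposite directions with TW on the 2 matrices. It rose on Soft (0.17 ± 0.020 SE on the log2 scale, adjusted p = 2.82e-12, edgeR) and fell on Stiff (-0.16 ± 0.020, adjusted p = 1.60e-11), a difference of -0.33 ± 0.029 (adjusted p = 2.35e-18). With mito it rose on Soft (0.18 ± 0.020), whereas on Stiff the change was -0.016 ± 0.020 (adjusted p = 0.598), a difference of -0.20 ± 0.028 (adjusted p = 2.95e-08). It was higher in Stiff than in Soft (0.20 ± 0.020) and lower in Stiff-TW than in Soft-TW (-0.13 ± 0.020). With mito on both matrices the difference was 0.0019 ± 0.020 (adjusted p = 0.94).

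Cdkn1a (12575, chr17:29090979-29100722), which encodes the cyclin-dependent kinase inhibitor p21, was lower on Stiff than on Soft in the plain, mito and TW groups and higher with TW on both matrices. It was at 299, 297 and 315 CPM in Soft and 252, 251 and 251 CPM in Stiff. It was at 379, 371 and 368 CPM in Soft+mito and 255, 259 and 266 CPM in Stiff+mito. It was at 392, 403 and 399 CPM in Soft-TW and 316, 324 and 323 CPM in Stiff-TW. No 2 groups overlapped, and they ran from Stiff through Stiff+mito, Soft, Stiff-TW and Soft+mito to Soft-TW.

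Cdkn1a was the one gene of the 10 that was lower in Stiff than in Soft, by 1.21-fold (log2 fold change -0.27 ± 0.024 SE, adjusted p = 5.75e-19, edgeR). It was also lower in Stiff+mito than in Soft+mito (-0.52 ± 0.023) and in Stiff-TW than in Soft-TW (-0.31 ± 0.023). It rose with TW by 1.31-fold on Soft (0.39 ± 0.023, adjusted p = 8.27e-31) and 1.28-fold on Stiff (0.35 ± 0.024, adjusted p = 1.42e-26), and the difference of these responses was -0.037 ± 0.033 (adjusted p = 0.398). With mito it rose on Soft (0.30 ± 0.023, adjusted p = 1.76e-21). On Stiff the mito change was 0.050 ± 0.024 (adjusted p = 0.104), and the response differed between the matrices by -0.25 ± 0.033 (adjusted p = 2.27e-09). In the TW groups, Cdkn1a was thus higher while Trp53 mRNA was lower than in the plain groups.

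Ccng1 (12450, chr11:40748552-40755309), which encodes cyclin G1, a p53 target that recruits a phosphatase to Mdm2, followed Trp53 in direction in the 5 comparisons with the plain groups. It was at 521, 506 and 511 CPM in Soft and 607, 631 and 609 CPM in Stiff. It was at 533, 544 and 567 CPM in Soft+mito and 558, 563 and 579 CPM in Stiff+mito. It was at 436, 429.6 and 429 CPM in Soft-TW and 432, 425 and 429 CPM in Stiff-TW. The TW groups overlapped each other and lay below all others, and every Stiff library was above every library of the other 5 groups.

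Ccng1 fell with TW on Soft (-0.25 ± 0.021 SE on the log2 scale, adjusted p = 2.63e-19, edgeR) and more so on Stiff (-0.52 ± 0.021, adjusted p = 2.44e-43), a difference of -0.27 ± 0.030 (adjusted p = 3.83e-13). Mito went with a rise on Soft (0.10 ± 0.021, adjusted p = 0.000192) and a fall on Stiff (-0.12 ± 0.021, adjusted p = 1.41e-06), a difference of -0.21 ± 0.030 (adjusted p = 5.55e-09). The rise on Soft was in scaled counts: in the authors' TPM, the Ccng1 means were 265.4 in Soft and 265.2 in Soft+mito. Ccng1 was higher in Stiff than in Soft by 1.20-fold (0.26 ± 0.021). In Stiff-TW against Soft-TW the change was -0.0092 ± 0.022 (adjusted p = 0.744). The excess of Stiff+mito over Soft+mito, 0.048 ± 0.021 (adjusted p = 0.0373), missed the threshold in DESeq2 (0.222), with either other scaling (0.111 and 0.134), without the filter on low counts (0.111), with only these groups in the fit (0.170), and without Soft+mito replicate 1 (0.306), Soft+mito replicate 2 (0.128) or Stiff+mito replicate 3 (0.437).

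Trp53inp1 (60599, chr4:11156441-11174379) encodes a nuclear protein that assists p53 in the choice of death genes and also acts in autophagy. Its levels were 243, 251 and 238 CPM in Soft and 313, 312 and 307 CPM in Stiff. They were 236, 244 and 234 CPM in Soft+mito and 320.1, 311 and 301 CPM in Stiff+mito. They were 265, 267 and 263 CPM in Soft-TW and 258, 261 and 254 CPM in Stiff-TW. Stiff and Stiff+mito overlapped each other and were above all other groups.

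Trp53inp1 rose in Stiff against Soft (0.35 ± 0.024 SE on the log2 scale, adjusted p = 1.77e-25, edgeR) and in Stiff+mito against Soft+mito (0.39 ± 0.024, adjusted p = 1.26e-28). Under TW the matrix difference was -0.040 ± 0.024 (adjusted p = 0.159, or 0.0086 with library totals). TW went with a rise on Soft (0.12 ± 0.024, adjusted p = 1.31e-05) and a fall on Stiff (-0.27 ± 0.024, adjusted p = 4.85e-19), and the difference, -0.39 ± 0.034, was the largest interaction of TW with matrix among the 6 called (adjusted p = 2.35e-18). With mito the changes were -0.037 ± 0.024 on Soft (adjusted p = 0.276, or 0.0382 with library totals) and -0.00079 ± 0.023 on Stiff (adjusted p = 0.985).

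Among the death genes, Bbc3 (170770, chr7:16308398-16318334), which encodes the BH3-only protein Puma that releases Bax and Bak, was highest in Stiff-TW. It was at 6.71, 8.87 and 8.55 CPM in Soft and 10.1, 9.21 and 11.2 CPM in Stiff. It was at 7.50, 6.92 and 7.31 CPM in Soft+mito and 9.85, 9.80 and 10.2 CPM in Stiff+mito. It was at 10.1, 11.6 and 12.3 CPM in Soft-TW and 14.6, 14.6 and 15.2 CPM in Stiff-TW. All 3 Stiff-TW libraries were above the rest, Stiff, Stiff+mito and Soft-TW overlapped, and Soft and Soft+mito overlapped below them.

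Bbc3 rose with TW by 1.41-fold on Soft (log2 fold change 0.50 ± 0.10 SE, adjusted p = 7.35e-06, edgeR) and 1.45-fold on Stiff (0.54 ± 0.090, adjusted p = 9.93e-08). These responses differed by 0.041 ± 0.13 (adjusted p = 0.845), so no dependence on the matrix was detected. It was higher on Stiff than on Soft in the plain groups (0.34 ± 0.10, adjusted p = 0.00288), with mito (0.46 ± 0.10) and with TW (0.38 ± 0.088). Without Soft replicate 1, which had the fewest Bbc3 counts, the difference of the plain groups was 0.23 (adjusted p = 0.0752). The mito changes, -0.15 ± 0.11 on Soft and -0.031 ± 0.10 on Stiff, did not pass the test (adjusted p = 0.316 and 0.85).

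Bax (12028, chr7:45461695-45466903), whose product opens the outer membrane of mitochondria, fell with TW and otherwise varied little. It was at 129, 126 and 138 CPM in Soft and 139, 131 and 141 CPM in Stiff. It was at 135, 135 and 137 CPM in Soft+mito and 136, 138 and 140.3 CPM in Stiff+mito. It was at 124, 119.5 and 129 CPM in Soft-TW and 112, 115 and 115 CPM in Stiff-TW. The Stiff-TW libraries were below all others, and the remaining 5 groups overlapped in a chain.

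The fall of Bax with TW was -0.27 ± 0.032 SE on Stiff (log2, adjusted p = 1.25e-12, edgeR), and its difference from the response on Soft was -0.19 ± 0.045 (adjusted p = 0.000393). On Soft it was -0.081 ± 0.031 (adjusted p = 0.0214), which missed the threshold in DESeq2 (0.0516), without Soft replicate 3 (0.319), and without Soft-TW replicate 1 (0.0547) or 2 (0.0833). Bax was lower in Stiff-TW than in Soft-TW (-0.12 ± 0.032, adjusted p = 0.000736). Stiff against Soft gave 0.063 ± 0.031 (adjusted p = 0.0753, edgeR), and this passed without Soft replicate 3 (0.00674) or Stiff replicate 2 (0.0153). The mito changes were 0.049 ± 0.031 on Soft (adjusted p = 0.248, or 0.0400 without Soft replicate 3) and 0.0088 ± 0.031 on Stiff (0.866), and Stiff+mito against Soft+mito gave 0.023 ± 0.031 (0.516).

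Fas (14102, chr19:34290647-34327775), the death receptor that binds Fas ligand, had the largest fold change of the 10 in each comparison where it was called, and the lowest counts, between 14 and 151 in a library. It was at 1.13, 1.13 and 0.95 CPM in Soft and 2.60, 2.92 and 2.78 CPM in Stiff. It was at 0.827, 1.12 and 1.00 CPM in Soft+mito and 2.94, 2.76 and 3.65 CPM in Stiff+mito. It was at 2.95, 4.06 and 3.12 CPM in Soft-TW and 9.53, 8.02 and 8.15 CPM in Stiff-TW. Soft and Soft+mito overlapped at the bottom, and Stiff-TW stood above all. Between them, Stiff+mito overlapped both Stiff and Soft-TW, while Soft-TW was above Stiff without overlap. Its ligand gene, Fasl, reached 0.31 TPM and was not tested.

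Fas rose 2.57-fold in Stiff against Soft (log2 fold change 1.36 ± 0.22 SE, adjusted p = 7.87e-08, edgeR). It rose 3.14-fold with TW on Soft (1.65 ± 0.21, adjusted p = 3.66e-11) and 3.09-fold with TW on Stiff (1.63 ± 0.15, adjusted p = 9.83e-19). The TW responses differed by -0.023 ± 0.23 (adjusted p = 0.955), so no dependence on the matrix was detected. The matrix difference was also called with mito (1.66 ± 0.22, adjusted p = 8.88e-11) and with TW (1.34 ± 0.14, adjusted p = 7.36e-15). No mito effect was detectable at these counts: the changes were -0.12 ± 0.28 on Soft (adjusted p = 0.801) and 0.17 ± 0.18 on Stiff (adjusted p = 0.492).

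Sesn1 (140742, chr10:41810574-41908436) encodes sestrin 1, which restrains mTORC1 and takes part in the antioxidant response. It was at 18.1, 17.5 and 18.1 CPM in Soft and 21.9, 22.0 and 19.7 CPM in Stiff. It was at 15.8, 16.7 and 16.5 CPM in Soft+mito and 22.6, 21.6 and 21.1 CPM in Stiff+mito. It was at 18.1, 19.2 and 20.2 CPM in Soft-TW and 24.4, 25.5 and 28.6 CPM in Stiff-TW. As for Bbc3 and Fas, Stiff-TW was above every other group without overlap.

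Sesn1 was higher on Stiff in the plain groups (0.24 ± 0.069 SE on the log2 scale, adjusted p = 0.00188, edgeR), with mito (0.41 ± 0.070, adjusted p = 1.75e-07) and with TW (0.45 ± 0.066, adjusted p = 4.68e-09). It rose with TW on Stiff (0.31 ± 0.065, adjusted p = 1.64e-05), and on Soft the change was 0.10 ± 0.070 (adjusted p = 0.234). The difference of these responses, 0.21 ± 0.10, had an adjusted p of 0.0802, or 0.0316 without Stiff-TW replicate 1. The mito changes were -0.13 ± 0.072 on Soft (adjusted p = 0.172) and 0.037 ± 0.067 on Stiff (0.716).

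Zmat3 (22401, chr3:32334792-32365665), a zinc-finger RNA-binding protein that affects splicing, was higher in each Stiff group than in any Soft group. It was at 76.3, 72.9 and 72.9 CPM in Soft and 106, 112 and 107 CPM in Stiff. It was at 65.8, 63.0 and 61.1 CPM in Soft+mito and 103, 104 and 98.4 CPM in Stiff+mito. It was at 72.5, 75.1 and 80.0 CPM in Soft-TW and 90.4, 94.0 and 96.3 CPM in Stiff-TW. Soft and Soft-TW overlapped, and the other neighbours in the order did not.

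After Fas, Zmat3 had the largest rise of the 10 in Stiff against Soft (0.55 ± 0.036 SE on the log2 scale, adjusted p = 8.50e-27, edgeR) and in Stiff+mito against Soft+mito (0.69 ± 0.037, adjusted p = 7.07e-33). Under TW the matrix difference was 0.30 ± 0.037 (adjusted p = 8.78e-12). TW went with a fall on Stiff (-0.21 ± 0.035, adjusted p = 5.72e-08), while on Soft the change was 0.036 ± 0.038 (adjusted p = 0.438), and the responses differed by -0.25 ± 0.052 (adjusted p = 4.32e-05). With mito, Zmat3 fell on Soft (-0.23 ± 0.039, adjusted p = 2.12e-06). The smaller fall on Stiff, -0.089 ± 0.034 (adjusted p = 0.033), missed the threshold in DESeq2 (0.135) and without Stiff replicate 2 (0.204), Stiff replicate 3 (0.0506) or Stiff+mito replicate 3 (0.211). The interaction, 0.14 ± 0.052 (adjusted p = 0.0451), missed it in DESeq2 (0.156) and in 9 of the 12 fits that left out a library (adjusted p up to 0.151).

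**Figure D2:**
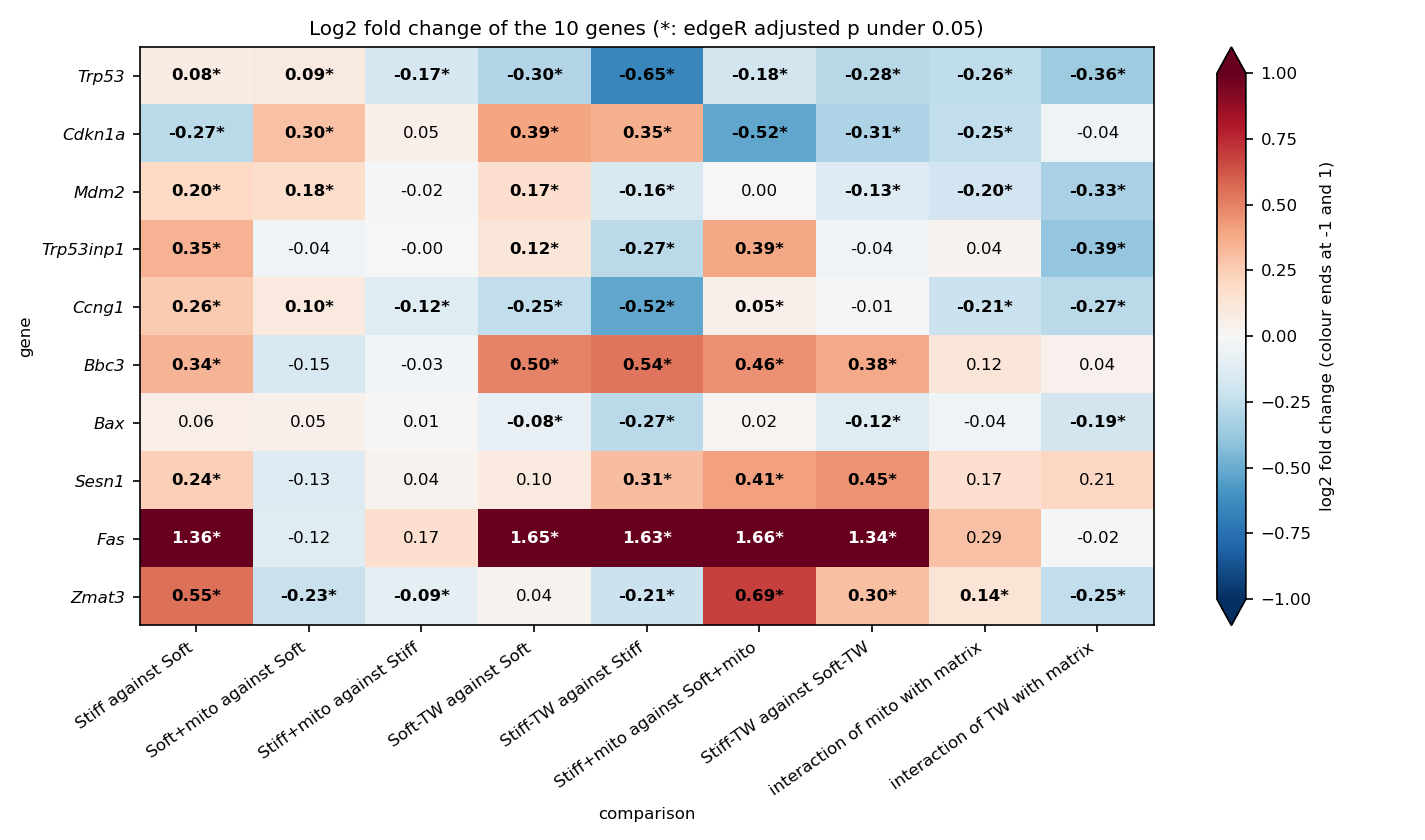
Log2 fold change of each gene (row) in each comparison or interaction (column), from the edgeR fit over all libraries; red is higher, blue lower, the colour ends at -1 and 1, and an asterisk marks an adjusted p under 0.05. Fas exceeds the colour range in 5 columns, and every gene has an asterisk in Stiff-TW against Stiff.

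**Figure D3:**
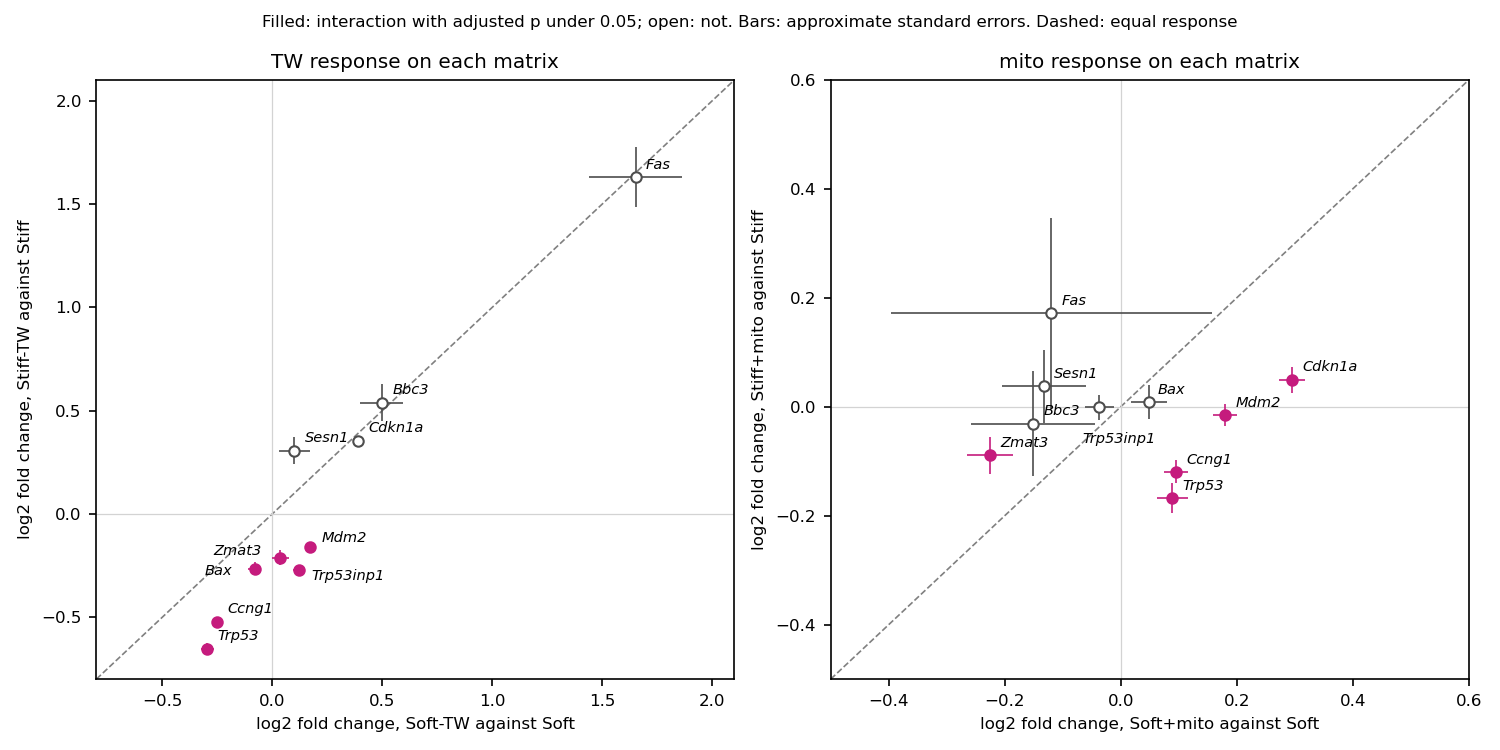
Response to TW (left) and to mito (right) on Soft (horizontal axis) and on Stiff (vertical axis), in log2 units with standard errors; the dashed line marks equal responses and filled points a called interaction. In the TW panel the 6 filled genes lie below the line while Cdkn1a, Bbc3 and Fas lie near it.

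The 10 genes showed different response patterns with TW. Cdkn1a, Bbc3 and Fas rose on both matrices, and no interaction was called for them. Trp53, Ccng1 and Bax fell on both, each more on Stiff. The small fall of Bax on Soft lost its call in DESeq2 and in 3 of 6 fits that left out a library. Mdm2 and Trp53inp1 rose on Soft and fell on Stiff, and Sesn1 and Zmat3 changed on Stiff alone in the tests, Sesn1 upward and Zmat3 downward; the difference between matrices was called for Zmat3 and not for Sesn1. The median of the 10 was 0.11 in Soft-TW against Soft and -0.19 in Stiff-TW against Stiff on the log2 scale, where the medians of all tested genes were -0.0037 and 0.0091.

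Summed levels of cell type markers differed between the same groups. The summed level of 11 macrophage markers was 51.9 to 53.2 TPM in Soft and 98.4 to 100.03 TPM in Soft-TW, and 44.1 to 47.8 TPM in Stiff and 77.9 to 79.2 TPM in Stiff-TW, with 6 of the 11 tested and 3 (Cd14, Mertk and Lyz2) at a mean of 10 TPM or more. The sum of 10 fibroblast and mesenchymal markers, mostly Vim, was 2202 to 2278 TPM in Soft and 3041 to 3116 TPM in Soft-TW, and 1498 to 1531 TPM in Stiff and 4342 to 4377 TPM in Stiff-TW. The epithelial sum, of which Krt8 and Krt18 were the 2 markers tested, was 999 to 1029 TPM in Soft and 765 to 784 TPM in Soft-TW, and 696 to 714 TPM in Stiff and 671 to 683 TPM in Stiff-TW. The lymphocyte sum reached 1.91 TPM. With mito the macrophage sum was 61.1 to 65.4 TPM on Soft and 57.2 to 60.7 TPM on Stiff, the fibroblast and mesenchymal sum was 2521 to 2590 and 2068 to 2170 TPM, and the epithelial sum was 1031 to 1044 and 733 to 759 TPM. The part of these differences in the changes of the 10 genes was not tested.

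Per length, the 10 genes differed widely in level. Averaged over the 18 libraries, Bax had 366 TPM, Mdm2 323, Cdkn1a 307, Ccng1 252, Trp53 168 and Trp53inp1 82.2 TPM. Zmat3 had 17.8 TPM, Sesn1 12.9, Bbc3 9.86 and Fas 4.46 TPM. The 4 least abundant genes, whose counts were fewer, included the 3 that were highest without overlap in Stiff-TW.

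Genes of like pattern were listed for the 7 members whose 6 group means spanned at least 0.5 on the log2 scale, by the root mean square difference of centred group means among 9868 or 9869 tested genes. Nearest to Trp53 were Tbc1d25 (0.026), Jagn1 (0.026) and Gemin4 (0.028), and nearest to Cdkn1a were Tmem189 (0.054), Tmem203 (0.063) and Pagr1a (0.064). The genes nearest to Ccng1 were Nrp1, Timm50 and Uchl3, at 0.024 to 0.029, and those nearest to Sesn1 were Terf1, Odf2 and Ifi47, at 0.025 to 0.029. Bbc3 was nearest to Fsd1l, Zbtb25 and Trmt2b, at 0.044 to 0.059, and Zmat3 to Ift172, Tnfaip2 and Fyn, at 0.025 to 0.048. For Fas, Enpp2 stood at 0.11, C3 at 0.16 and Dbp at 0.28. The difference was not scaled by span, and the group means of Fas spanned 2.98, where those of the other listed members spanned 0.52 to 1.02. The distances of Fas therefore cannot be compared with those of the others. None of the 10 was in another member's list, and these are descriptions over 6 group means. Fas could not be listed, since its mean was 3.31 CPM and candidates needed at least 5 CPM. With only 3 genes in a list, absence from it does not show that the members differ in pattern.

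The deposited transcript table divides each gene's reads among its RefSeq transcripts, and that division is the quantifier's estimate, given here without a test. Mdm2 had 2 main curated transcripts, which the annotation used here places on the same gene model, so their difference in structure is not described. The lesser of them took 26.0, 27.2 and 24.9% of the Mdm2 TPM in Soft and 11.1, 7.94 and 10.2% in Soft-TW. It took 19.8, 19.0 and 18.3% in Stiff and 5.25, 6.43 and 7.96% in Stiff-TW. Both TW groups were thus below all others, also below Soft+mito at 25.9 to 28.0% and Stiff+mito at 17.1 to 18.1%. The main transcript had a mean of 255 TPM in Soft-TW beside 197 TPM in the plain group, and of 221 TPM in Stiff-TW beside 235 TPM. The lesser one had 32.1 TPM in Soft-TW beside 82.2 TPM, and 18.9 TPM in Stiff-TW beside 64.4 TPM. On Soft the gene total rose while the lesser transcript was lower, and on Stiff both were lower.

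The main curated Bbc3 transcript, with 51.9 to 171 estimated counts in a library, took 56.8 to 73.4% of the Bbc3 TPM in Soft and 41.2 to 44.1% in Soft+mito. These groups did not overlap, and the remaining 4 groups lay between 59.2 and 80.6%.

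Cdkn1a has 2 curated starts 2790 bases apart, and the p53 consensus match printed above stands before the upstream one. The transcript from that start was a small share of the gene, with 54.3 to 178 estimated counts in a library. It took 1.84, 1.11 and 1.46% of the Cdkn1a TPM in Soft and 2.70, 2.55 and 4.29% in Stiff. In Soft+mito it took 0.831, 0.949 and 1.31%, and in Stiff+mito 4.01, 3.12 and 3.76%. With TW it took 1.72, 2.51 and 1.83% on Soft and 2.93, 2.31 and 3.25% on Stiff. In mean TPM it was 4.58 in Soft and 7.77 in Stiff, whereas the transcript from the downstream start was 307 in Soft and 237 in Stiff. The lower Cdkn1a total of Stiff was thus a lower estimate for the downstream start, and the estimate for the upstream start was the higher one there.

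Sesn1 has starts 76865 bases apart in RefSeq, and the consensus match printed above stands before the downstream one. The transcript from the downstream start, which encodes 492 residues, was at a mean of 8.79 TPM in Soft, 9.86 TPM in Stiff and 13.4 TPM in Stiff-TW. The transcript from the upstream start, which encodes 551 residues, was at 3.21, 3.52 and 2.93 TPM in the same groups. The rise of Sesn1 in Stiff-TW was thus placed on the downstream start, whose share was 79.7, 85.4 and 81.2% there and 73.2, 73.3 and 74.5% in Stiff. Trp53 showed no such shift, since its main transcript kept a mean share of 81.7 to 85.4% in the 6 groups.

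**Figure D4:**
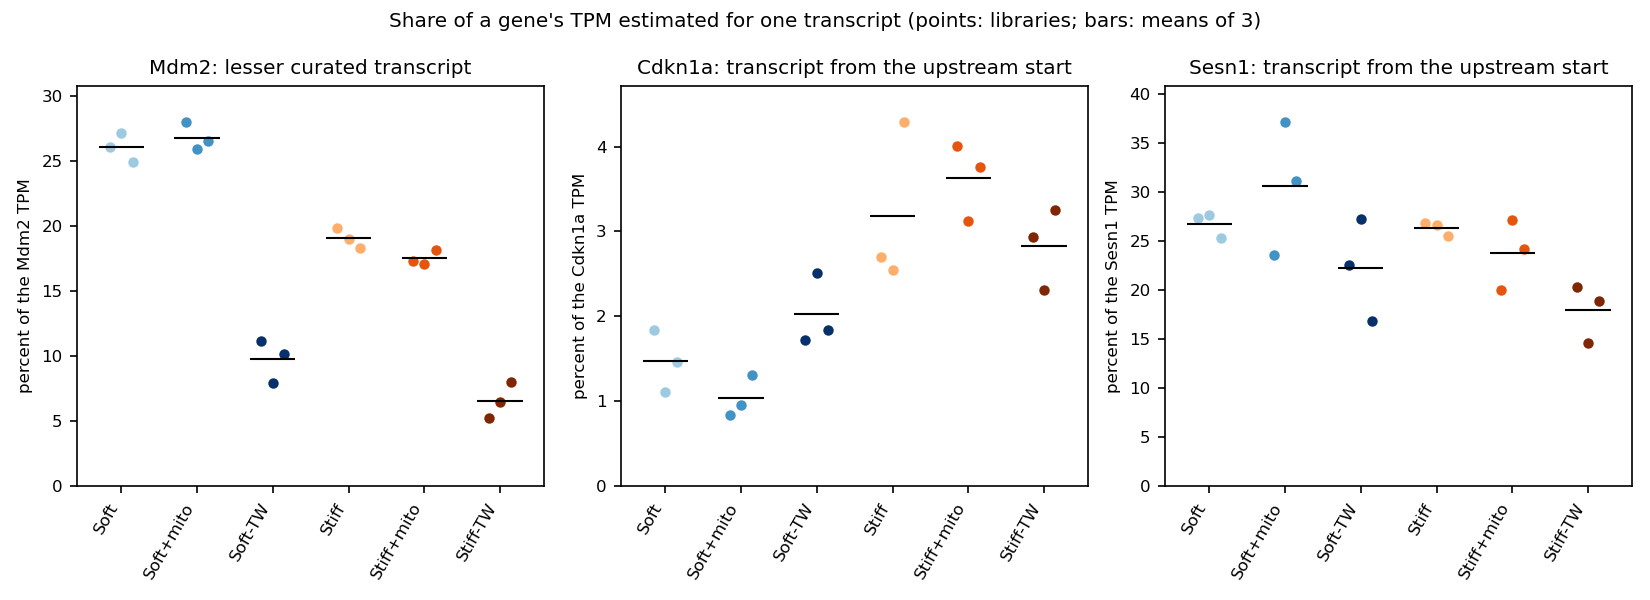
Share of the gene's TPM, in percent, estimated for the lesser curated Mdm2 transcript, for the Cdkn1a transcript from the upstream start and for the Sesn1 transcript from the upstream start, by library (points) and group mean (bars). The Mdm2 share is lowest in Soft-TW and Stiff-TW, and the Cdkn1a share is below 3% in all Soft groups.

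The members were next set beside other genes of the pathway: 19 regulators and damage kinases of p53, 48 other targets, 28 members of the Bcl2 family and caspases, 22 G1 cyclins, kinases and inhibitors, and 20 mitotic genes bound by DREAM. Of these, 17, 42, 24, 21 and 20 were tested. The lists were chosen with earlier results of these data known, and their counts are descriptions beside the shares of all genes given above. Cdkn1a is named beside the mitotic genes below, and a link between them was not tested.

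In Stiff against Soft, where Cdkn1a was lower, 29.1% of all tested genes were called higher and 24.7% lower. Among the mitotic genes, 19 of 20 rose and 0 fell, with a median of 0.41 where that of all genes was 0.015. Cdc25c, the phosphatase that activates Cdk1, rose by 0.71 ± 0.067 SE on the log2 scale, Ccnb1, the mitotic cyclin B1, by 0.59 ± 0.032, Ccnb2 by 0.58 ± 0.041 and the kinesin gene Cenpe by 0.57 ± 0.034. Of the regulators, 12 of 17 rose and 1 fell: Mdm4, the partner of Mdm2 that inhibits p53, rose by 0.66 ± 0.028, the checkpoint kinases Chek1 and Chek2 by 0.42 ± 0.058 and 0.36 ± 0.058, and the deacetylase gene Sirt1 changed by -0.55 ± 0.069. Of the other targets, 25 of 42 rose and 8 fell, among them Gadd45a at 1.20 ± 0.036, Pltp at 1.18 ± 0.081, Gdf15 at 1.15 ± 0.10 and Cd80 at 1.00 ± 0.11.

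In the same comparison, 7 of 24 rose and 9 fell in the Bcl2 and caspase list, beside 29.1% and 24.7% of all tested genes. Bcl2, which blocks Bax, rose by 0.58 ± 0.082 SE, Birc3 by 0.50 ± 0.050 and the BH3-only gene Bid by 0.50 ± 0.054, whereas Bmf changed by -0.70 ± 0.10. Of the G1 genes, 8 of 21 rose and 5 fell: Myc rose by 0.58 ± 0.029, Ccnd2 by 0.56 ± 0.044 and Cdkn2d by 0.40 ± 0.070, and Ccne1 changed by -0.34 ± 0.075. The highest adjusted p among these named genes was 5.57e-05 (edgeR).

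With TW on Soft, Cdkn1a rose. Among the mitotic genes 0 of 20 rose and 16 fell (median -0.22), beside 28.9% and 28.0% of all tested genes. The named ones were Mybl2 at -0.55 ± 0.071 SE on the log2 scale, Ect2 at -0.37 ± 0.036, Foxm1 at -0.36 ± 0.036 and Ccnb1 at -0.34 ± 0.036. With TW on Stiff, Cdkn1a also rose, and 15 of 20 mitotic genes rose and 2 fell (median 0.16), beside 35.5% and 34.1% of all tested genes. Bub1b rose by 0.40 ± 0.036, Cenpa by 0.39 ± 0.034 and Cdc20 by 0.31 ± 0.034, whereas Mybl2 changed by -0.62 ± 0.073. The TW response of the mitotic genes differed between the matrices, with 19 of 20 interactions higher on Stiff and none lower (median 0.36). Over all tested genes, 16.4% had a higher and 19.7% a lower interaction. The TW response of Cdkn1a was not shown to differ. The adjusted p of the genes named here was at most 6.54e-11 (edgeR).

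Of the regulators, 6 of 17 rose and 6 fell with TW on Soft, beside 28.9% and 28.0% of all tested genes. With TW on Stiff, 5 of 17 rose and 10 fell, beside 35.5% and 34.1%. Chek1 changed by -0.75 ± 0.068 SE on Soft and -0.84 ± 0.062 on Stiff, and Prkdc, the DNA-dependent protein kinase, by -0.39 ± 0.046 and -0.59 ± 0.046. On Soft, Mdm4 rose by 0.34 ± 0.029 and the ribosomal gene Rpl5, whose product can bind Mdm2, by 0.31 ± 0.020. On Stiff, Atm changed by -0.42 ± 0.041 and Chek2 by -0.35 ± 0.059. Their adjusted p was at most 1.39e-07 (edgeR).

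With TW on Soft, 20 of 42 other targets of p53 rose and 15 fell, beside 28.9% and 28.0% of all tested genes. With TW on Stiff, 14 of 42 rose and 15 fell, near the 35.5% and 34.1% of all tested genes. On Soft, Tap1 rose by 0.85 ± 0.060 SE, Dcxr by 0.59 ± 0.10 and Ddit4, which restrains mTORC1, by 0.50 ± 0.037. On Stiff, Trp53i13 rose by 0.89 ± 0.12, whereas Gdf15 changed by -0.97 ± 0.10 and Tigar, a regulator of glycolysis, by -0.92 ± 0.079. The adjusted p of these genes was at most 3.45e-07 (edgeR).

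Of the Bcl2 family and caspases, 5 of 24 rose and 10 fell with TW on Soft, beside 28.9% and 28.0% of all tested genes. On Stiff, 8 of 24 rose and 9 fell with TW, near the 35.5% and 34.1% of all tested genes. Bcl2l11, which encodes the BH3-only protein Bim, rose with TW by 0.64 ± 0.049 SE on Soft and 0.83 ± 0.046 on Stiff, as Bbc3 did, and Birc3 rose by 0.74 ± 0.048 and 0.79 ± 0.042. Bid changed by -0.46 ± 0.063 and -0.80 ± 0.058, Bmf by -0.43 ± 0.10 on Soft and Bcl2 by -0.68 ± 0.084 on Stiff. Of the G1 genes, 8 of 21 rose and 8 fell on Soft and 9 of 21 rose and 8 fell on Stiff. Cdkn2d, another inhibitor of cyclin-dependent kinases, rose with TW by 0.50 ± 0.069 and 0.88 ± 0.059, and Rbl2, the pocket protein p130 of DREAM, by 0.45 ± 0.038 and 0.64 ± 0.037. On Soft, E2f2 changed by -0.65 ± 0.11 and Rbl1 by -0.54 ± 0.042, and on Stiff, Ccnd3 rose by 0.78 ± 0.048 and Ccnd2 changed by -0.79 ± 0.046. The highest adjusted p among these was 5.51e-05 (edgeR).

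With mito, 14.8% of all tested genes were called higher and 11.9% lower on Soft, and 15.6% and 17.8% on Stiff. On Soft, where Cdkn1a and Mdm2 rose, 2 of 20 rose and 1 fell among the mitotic genes: Plk1 rose by 0.21 ± 0.044 SE and Cdc20 by 0.12 ± 0.037, and Top2a changed by -0.091 ± 0.022. Of the regulators, 5 of 17 rose and 7 fell, with Mdm4 at -0.42 ± 0.032, Sirt1 at 0.24 ± 0.061, Atr at -0.22 ± 0.043 and Chek1 at -0.19 ± 0.062. Of the other targets, 10 of 42 rose and 4 fell: Plk2 rose by 0.43 ± 0.022 and Thbs1 by 0.27 ± 0.062, and Ddit4 changed by -0.41 ± 0.041. In the Bcl2 and caspase list, 5 of 24 rose and 5 fell, with Bcl2 at -0.39 ± 0.093, Casp2 at -0.29 ± 0.061, Bad at 0.27 ± 0.064 and Casp6 at 0.24 ± 0.052. Of the G1 genes, 2 of 21 rose and 5 fell: Myc rose by 0.33 ± 0.029, and Ccnd2, E2f2 and Cdk6 changed by -0.34 ± 0.049, -0.28 ± 0.10 and -0.14 ± 0.029. Chek1 lost its call in DESeq2 (adjusted p = 0.10) and without Soft replicate 2 or Soft+mito replicate 1, E2f2 in DESeq2 (0.144) and in 4 of 6 fits that left out a library, and Cdc20 without Soft replicate 2 (0.0844). The counts of these lists were small and moved with single libraries. The 5 regulators that rose were 3 without Soft replicate 1, Soft replicate 2 or Soft+mito replicate 3, and the 2 G1 genes that rose were 1 in the same fits. The 5 G1 genes that fell were 2 without Soft replicate 1 and 3 without Soft+mito replicate 2 or 3.

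On Stiff, where Trp53, Ccng1 and Zmat3 fell with mito, 0 of 20 rose and 3 fell among the mitotic genes, with Ccnb1 at -0.12 ± 0.030 SE, Ccna2 at -0.11 ± 0.030 and Prc1 at -0.077 ± 0.025 on the log2 scale. Of the regulators, 1 of 17 rose and 5 fell, with Chek1 at -0.24 ± 0.057, Prkdc at -0.13 ± 0.043, Atr at -0.12 ± 0.039 and Usp7, a deubiquitinase of Mdm2, at -0.11 ± 0.025. Of the other targets, 13 of 42 rose and 9 fell: Thbs1 rose by 1.02 ± 0.046, Dcxr by 0.50 ± 0.10, Btg2 by 0.43 ± 0.11 and Plk2 by 0.43 ± 0.022. In the Bcl2 and caspase list, 5 of 24 rose and 5 fell, with Bcl2l11 at 0.24 ± 0.049, Bid at -0.25 ± 0.053, Bak1 at -0.22 ± 0.045 and Casp2 at -0.18 ± 0.059. Of the G1 genes, 7 of 21 rose and 5 fell: Ccnd3 rose by 0.30 ± 0.051 and Myc by 0.30 ± 0.026, and E2f2 and Ccne2 changed by -0.33 ± 0.10 and -0.24 ± 0.077. Prkdc, Atr, Casp2, E2f2 and Ccne2 lost their calls in DESeq2 (adjusted p = 0.0643, 0.0657, 0.0832, 0.0506 and 0.0684). They also lost them without 1 library, as did Prc1: without Stiff replicate 1 for Atr, E2f2 and Ccne2, without Stiff replicate 2 or Stiff+mito replicate 3 for Prkdc, without Stiff replicate 3 or Stiff+mito replicate 1 for Casp2, and without Stiff replicate 2 or Stiff+mito replicate 1 for Prc1. Of the counts, the 13 other targets that rose were 8 without Stiff replicate 3 and 11 or 12 in the remaining fits with a library left out. The 5 regulators that fell were 3 without Stiff replicate 2, and the 5 G1 genes that fell were 2 without Stiff replicate 1.

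**Figure D5:**
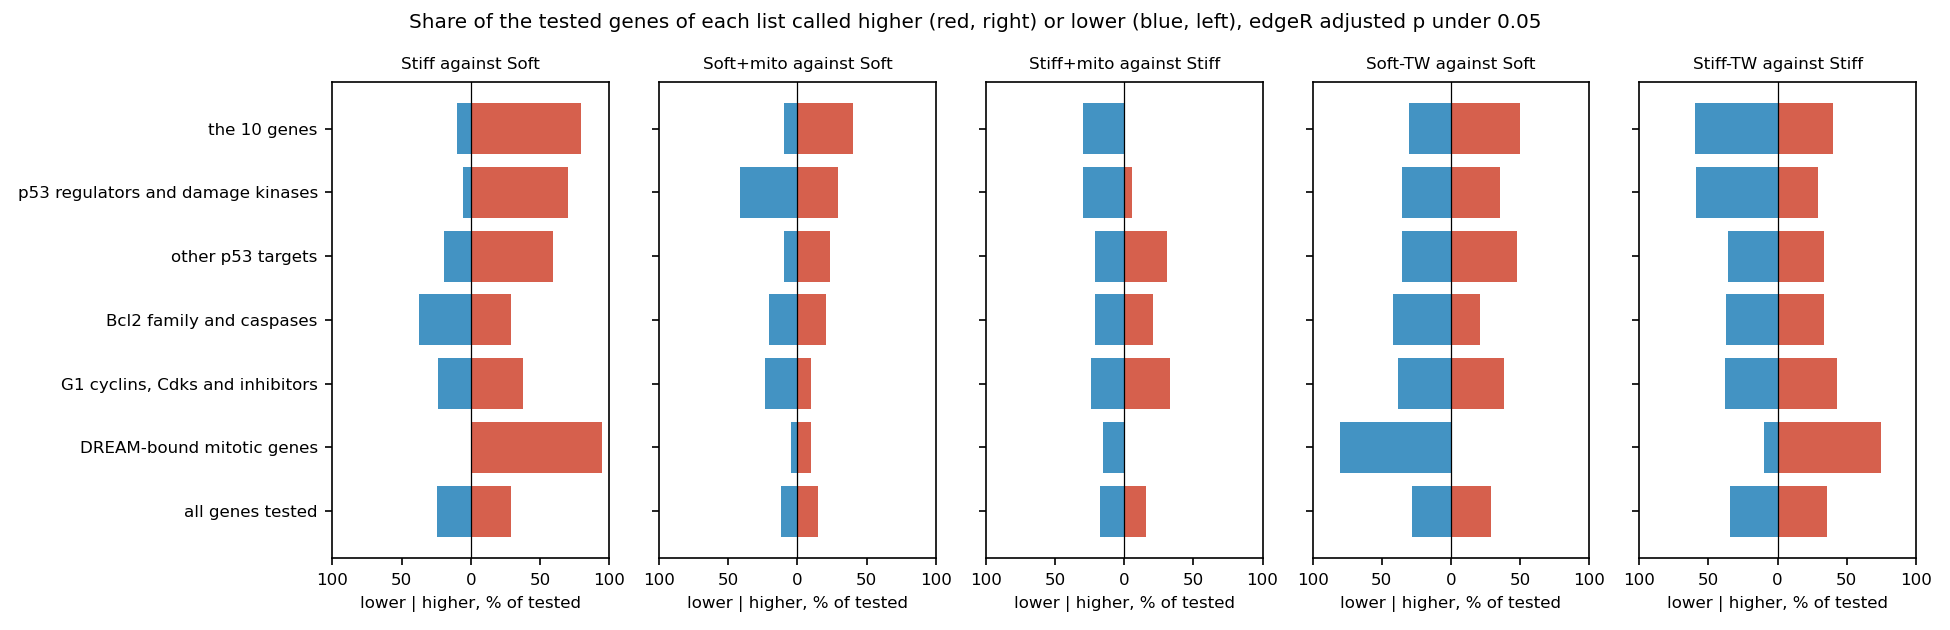
Share of the tested genes of each list called higher (red, to the right) or lower (blue, to the left) in the 5 comparisons with a plain group, in percent, with all 12245 tested genes in the bottom bars. The mitotic genes are mostly higher in Stiff against Soft and in Stiff-TW against Stiff, and mostly lower in Soft-TW against Soft.

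Within the mito and the TW groups, Cdkn1a was again lower and most mitotic genes were higher on Stiff. In Stiff+mito against Soft+mito, 19 of 20 rose and 1 fell (median 0.31), with Cdc25c at 0.66 ± 0.066 SE, Ccnb2 at 0.63 ± 0.042, Cenpe at 0.58 ± 0.034 and Top2a at 0.54 ± 0.021. In Stiff-TW against Soft-TW, 19 of 20 rose and 0 fell (median 0.77), with Cdc25c at 1.02 ± 0.065, Cenpa at 1.02 ± 0.037, Ccnb2 at 0.99 ± 0.042 and Aurkb at 0.91 ± 0.048. The medians of all tested genes were 0.014 and 0.0021. Of all tested genes, 32.7% were called higher and 30.8% lower between the mito groups, and 27.6% and 26.7% between the TW groups. Of the regulators, 10 of 17 rose and 3 fell in Stiff+mito against Soft+mito. In Stiff-TW against Soft-TW, 6 of 17 rose and 3 fell. Mdm4 rose by 1.10 ± 0.030 and 0.52 ± 0.027, and Sirt1 changed by -0.94 ± 0.068 and -0.60 ± 0.075. Atr and Chek2 rose by 0.42 ± 0.042 and 0.41 ± 0.058 between the mito groups. Chek1 and Trp53bp1 rose by 0.33 ± 0.074 and 0.32 ± 0.039 between the TW groups.

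Of the other targets, 25 of 42 rose and 9 fell in Stiff+mito against Soft+mito, beside 32.7% and 30.8% of all tested genes. In Stiff-TW against Soft-TW, 20 of 42 rose and 10 fell, beside 27.6% and 26.7%. Pltp rose by 1.36 ± 0.080 and 1.13 ± 0.076 SE and Thbs1 by 1.45 ± 0.049 and 0.99 ± 0.063. Gdf15 rose by 1.11 ± 0.094 between the mito groups, and Ckap2 and Psrc1 rose by 0.87 ± 0.029 and 0.69 ± 0.044 between the TW groups. In the Bcl2 and caspase list, 6 of 24 rose and 11 fell between the mito groups. Between the TW groups, 8 of 24 rose and 6 fell. Bcl2l11 rose by 0.60 ± 0.052 and 0.37 ± 0.043, Birc3 by 0.50 ± 0.051 and 0.54 ± 0.040, and Bmf changed by -0.58 ± 0.10 and -0.38 ± 0.11. Bcl2 rose by 0.80 ± 0.088 in Stiff+mito against Soft+mito, and Bad changed by -0.30 ± 0.070 in Stiff-TW against Soft-TW. Of the G1 genes, 11 of 21 rose and 7 fell between the mito groups. Between the TW groups, 10 of 21 rose and 5 fell. Cdkn2d rose by 0.59 ± 0.067 and 0.78 ± 0.058 and Rb1 by 0.51 ± 0.040 and 0.38 ± 0.037. Ccnd2 and Myc rose by 0.69 ± 0.047 and 0.55 ± 0.027 in Stiff+mito against Soft+mito. E2f2 and Ccnd1 rose by 0.53 ± 0.11 and 0.49 ± 0.021 in Stiff-TW against Soft-TW. Between the TW groups, the 8 genes of the Bcl2 and caspase list that rose were 5 without Soft-TW replicate 2. The 5 G1 genes that fell there were 3 without Soft-TW replicate 3 or Stiff-TW replicate 2. The highest adjusted p among the genes named here was 0.0018 (edgeR).

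Mdm4 lay between 20.3 and 51.6 TPM over the 18 libraries. Its group means were 126 ± 4.05 CPM (SD, n = 3) in Soft, 94.1 ± 1.25 in Soft+mito and 160.5 ± 2.81 in Soft-TW. On Stiff they were 199 ± 1.30, 201 ± 7.74 and 230.3 ± 6.82 CPM. This inhibitor of p53 was higher in each Stiff group than in any Soft group, as Zmat3 was, while Mdm2 did not separate the matrices in this way.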

How the data were processed

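RNA was measured in 18 libraries (6 groups of 3, from the sample group in the labels), 16054637 to 16887244 counts each. The authors deposited estimated counts (expected counts, from reads divided among features; 10.9% were not whole within 0.001) and TPM, for genes and for transcripts. The build is mm10 per the submitters' processing notes; the aligner, the quantifier and the transcript set: not given in the sources used here. Estimated counts were rounded, filtered with filterByExpr (12245 of 18397 genes kept), scaled by TMM and tested in edgeR 4.0.16 (R 4.3.3, quasi-likelihood, all 18 libraries in one model, no block), with Benjamini-Hochberg adjustment over all tested genes and a threshold of 0.05. Standard errors were derived from each fold change and its F statistic and are approximate. CPM is TMM-scaled; TPM is the authors' value. The test was checked on simulated counts. Alternatives were DESeq2 1.42.0, 2 other scalings, no filter, only the groups compared, a replicate block, and each library left out.

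Members and lists were chosen with earlier results of these data known. The named genes are the 10 members and, from each of 5 lists and per comparison, up to 4 called genes with the largest change, a mean of at least 5 CPM and no overlap between groups (not asked of interactions); a few genes are always given. A target that the rule names is not reported here. The promoter search was chosen after the data were seen and used RefSeq windows (GRCm38.p6), picked by gene symbol. Gene positions were from RefSeq, matched by gene ID. Transcript models and residue counts were from GENCODE, through its links to RefSeq transcripts. Across the deposited tables, 80 columns of per-sample or averaged values were not used.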

Additional observations from a re-analysis of the deposited data

Results flagged for a closer look

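Responses that differed between the Soft and Stiff matrices are collected here, each as the log2 response on Stiff minus that on Soft, with an adjusted p under 0.05 in the interaction test of edgeR. Among the 10 genes, the TW response was lower on Stiff for Trp53 (-0.36), Mdm2 (-0.33), Trp53inp1 (-0.39), Ccng1 (-0.27), Bax (-0.19) and Zmat3 (-0.25). The mito response was lower on Stiff for Trp53 (-0.26), Cdkn1a (-0.25), Mdm2 (-0.20) and Ccng1 (-0.21), and higher for Zmat3 (0.14, adjusted p = 0.0451). That of Zmat3 missed the threshold in DESeq2 (adjusted p = 0.156) and in 9 of 12 fits that left out a library. The 2 interactions share the plain Soft and Stiff libraries.

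Of the other lists, the TW response was lower on Stiff for the regulators Atm (-0.18), Atr (-0.32), Prkdc (-0.20) and Usp7 (-0.16). It was also lower for the targets Cd80 (-1.05), Gadd45a (-0.81), Gdf15 (-0.66) and Tigar (-0.67), for Bid (-0.34) and Diablo (-0.46), and for Ccnd2 (-0.76) and Myc (-0.38). It was higher on Stiff for Bcl2l1 (0.20), Cflar (0.22), Ccnd1 (0.51) and Cdkn2d (0.38). The mitotic genes named by the rule were all higher: Birc5 (0.46), Bub1b (0.49), Cenpa (0.56) and Ect2 (0.45). Prkdc missed the threshold in DESeq2 (adjusted p = 0.0586), and Atm without Stiff replicate 3 (0.0584) or Stiff-TW replicate 1 (0.0517).

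The mito response was higher on Stiff for Mdm4 (0.44), Hipk2 (0.22), Trp53bp1 (0.19), Thbs1 (0.75), Dcxr (0.41), Bcl2l11 (0.43), Rb1 (0.28), Ccnd3 (0.26), Cdkn1b (0.22), Ccnd1 (0.21) and Top2a (0.11). It was lower for Sirt1 (-0.39), Cd80 (-0.42), Tigar (-0.31), Bak1 (-0.36), Diablo (-0.24), Plk1 (-0.20), Ccna2 (-0.14) and Ccnb1 (-0.14). In DESeq2, Trp53bp1, Dcxr, Cd80, Tigar, Diablo, Ccna2 and Ccnb1 missed the threshold (adjusted p 0.0522 to 0.158), as did each of them but Diablo without at least 1 library. Groups of 3 libraries were too small for a test of single outlying libraries.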

How the results depend on the processing

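Counts of changed genes over the whole table stayed within 1.5 times in all alternatives but DESeq2, which called 2113 genes in Soft+mito against Soft (3274 in edgeR) and 1815 in the mito interaction (2888 in edgeR). Counts within the pathway lists moved more. In DESeq2, 3 regulators and 1 G1 gene rose and 3 genes of the Bcl2 and caspase list and 2 G1 genes fell in Soft+mito against Soft. In Stiff+mito against Stiff, 2 regulators, 2 genes of the Bcl2 and caspase list and 2 G1 genes fell, and in Stiff-TW against Soft-TW 5 of the Bcl2 and caspase list rose. With library totals, 2 regulators and 8 G1 genes fell in Stiff against Soft, and 3 regulators and 1 G1 gene rose and 2 mitotic genes fell in Soft+mito against Soft. In that comparison 3 regulators also rose without the filter and with only the groups compared, and 1 G1 gene rose in the latter. Every change of sign was in a difference that was not called and lay near 0. Mdm2 in Stiff+mito against Soft+mito went from 0.0019 to -0.011 in DESeq2, -0.0096 with library totals, -0.011 with DESeq2 size factors, -0.0060 without the filter and -0.0066 with only the groups compared. Zmat3 in Soft-TW against Soft was -0.020 with library totals, and Trp53inp1 in Stiff+mito against Stiff was 0.0032 with only the groups compared. With a library left out, the ranges that crossed 0 in Stiff+mito against Stiff were -0.023 to 0.023 for Trp53inp1, -0.098 to 0.041 for Bbc3, -0.022 to 0.028 for Bax and -0.013 to 0.064 for Sesn1. Elsewhere they were -0.0039 to 0.068 for Zmat3 in Soft-TW against Soft, -0.0082 to 0.0099 for Mdm2 and -6.9e-05 to 0.035 for Bax in Stiff+mito against Soft+mito, and -0.040 to 0.15 for Bbc3 and -0.11 to 0.14 for Fas in the TW interaction. The causes were not tested.

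No clear pairing by the replicate numbers in the labels was seen: correlations of deviations between same-numbered libraries ran from -0.108 to 0.101. In Stiff+mito against Soft+mito, the same-numbered library was the closest for all 3 replicates (0.036 to 0.074). With groups of 3, these correlations cannot exclude a pairing. With the replicate block the members' counts of calls were as without it (9, 5, 3, 8, 10, 8, 8, 5 and 6 in the order of the comparisons, with both interactions last), and genes changed went from 6588 to 6634 in Stiff against Soft. Depth limits Fas most, at 14 to 151 counts in a library.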
